A study of Mus musculus with 21 samples.

Results

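The 6 nuclear receptors that read retinoic acid (RA) in mouse cells, Rara, Rarb, Rarg, Rxra, Rxrb and Rxrg, were followed in mouse embryonic stem cells (ESCs). Each was taken by its gene name, as 6 of 32245 gene names in the tables of an RA time course and 6 of 25239 in those of a Cyp26a1 knockout set. All 6 were listed in all 21 libraries. The rule uses gene names and no measured value. In the time course tables (mm10) the RAR genes span chr11:98927818-98974942 on the plus strand (Rara), chr14:16430839-16819156 on the minus strand (Rarb) and chr15:102234938-102257517 on the minus strand (Rarg). The RXR genes, all on the plus strand, span chr2:27676440-27762957 (Rxra), chr17:34031812-34038399 (Rxrb) and chr1:167598384-167639623 (Rxrg). Of the 6, the tables place an overlapping gene only at Rarb.

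The receptors fall into 2 families of 3 genes. Rara, Rarb and Rarg encode the RA receptors (RARs), which bind all-trans RA, and Rxra, Rxrb and Rxrg encode the retinoid X receptors (RXRs), which pair with RARs and with several other nuclear receptors. An RAR and an RXR sit together on DNA at direct repeats of a short core motif, where they hold corepressors in the absence of RA and exchange them for coactivators when RA binds the RAR. Rarb is itself a classical RA target through such a repeat in its promoter. Cyp26a1, another such target, encodes the enzyme that oxidises RA and so removes it.

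Poly(A) RNA was sequenced from 7 groups of 3 libraries. In the time course, wild-type ESCs were labelled with RA for 12 h or 24 h (RA 12 h, RA 24 h), without RA for 12 h or 24 h (no RA 12 h, no RA 24 h), or as the 0 h starting point (ESC 0 h). In the Cyp26a1 set, Cyp26a1 knockout and wild-type ESCs both lost LIF and 2i and then spent 24 h in 2 µM RA. All cells had been grown on gelatin in serum with the cytokine LIF and 2i, the kinase inhibitors PD0325901 and CHIR99021. Differentiation in the time course was started by taking away LIF and 2i or by adding 2 µM RA, and the labels do not say outright that the RA cultures also lost LIF and 2i. The cell line is named as ESC only, and neither the knockout allele nor the number of clones is given in the sources used here. The titles number the libraries of a group without saying that they were separate cultures, so p-values measure the spread between these libraries, which may be technical.

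Levels are the authors' TPM (a transcript abundance scaled for gene length and depth), so genes can be set side by side within a set. Levels were never compared between the sets, whose tables were made with different gene annotations. Aligned depth was estimated from the most common ratio of coverage to FPKM. It was 2.96 to 3.91 gigabases in time course libraries and 2.72 to 3.24 in the Cyp26a1 set. Only 10.5% to 11.3% of the time course genes examined lay at that ratio, against 61.3% to 61.6% in the Cyp26a1 set. The knockout label was borne out by the gene itself, since Cyp26a1 stood at 4.62, 4.03 and 4.93 TPM in the knockout libraries and at 585, 606 and 592 TPM in the wild-type libraries. All 6 ESC markers, Pou5f1, Sox2, Nanog, Zfp42, Esrrb and Utf1, were at 1 TPM or more in every library. Libraries of 1 group correlated with each other at Pearson r of 0.958 or more on the log2(TPM + 1) scale in both sets. Within groups, the second RA 24 h library, the first no RA 12 h library and the third knockout library stood farthest apart on the leading axis of variance (scores of -49.8, -40.1 and -36.4), and results that turn on 1 library are given with and without it. Markers of endoderm moved with RA: the summed TPM of 7 such genes was 113 to 130 in RA 24 h and 2.64 to 2.79 in no RA 24 h. The part of cell composition in the results was not tested, and in bulk samples fewer cells of a type and less RNA per cell cannot be told apart.

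Promoter sequence was examined first, because the response of Rarb to RA is known to run through a repeat at its start. RefSeq (GRCm38.p6, the build mm10 is based on) gives 13 start-site windows for the 6 genes, each of 250 bases before and 50 after an annotated start. The core motif searched was NGNTCA on both strands, where the first N stands for A or G and the other for G or T, and a direct repeat was 2 of these on 1 strand with a gap of 1, 2 or 5 bases. The window of Rarb, chr14:16575427-16575726 on the minus strand, is shown because it was the only window of the 6 genes with a direct repeat with a 5-base gap, which is in capitals.
Rarb promoter: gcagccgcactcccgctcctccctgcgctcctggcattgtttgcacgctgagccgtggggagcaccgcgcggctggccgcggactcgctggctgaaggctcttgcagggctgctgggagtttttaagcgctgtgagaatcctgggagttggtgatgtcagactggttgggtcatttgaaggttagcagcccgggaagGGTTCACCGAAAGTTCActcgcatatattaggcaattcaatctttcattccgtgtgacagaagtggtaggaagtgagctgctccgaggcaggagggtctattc
The repeat lies 53 to 37 bases before the annotated start. It is set beside the repeat of the same kind in the Cyp26a1 window, with the core motifs in capitals and the gap in lower case.
Rarb repeat, chr14:16575513-16575529, minus strand: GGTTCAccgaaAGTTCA
Cyp26a1 repeat, chr19:37697776-37697792, minus strand: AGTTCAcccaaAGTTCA
Such a repeat was found in 32 of 32851 RefSeq mouse windows of this length, or 0.0974%. A single core motif is common, at 43.7% of all windows, and 7 of the 13 receptor windows held at least 1. The windows of Rarg, Rxra, Rxrb, Rxrg and Rara held no direct repeat with a gap of 1, 2 or 5 bases, and both windows of Rxrb held no core motif at all. A match is a string of letters and not a measured binding site, and a window without one says nothing about sites elsewhere.

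**Figure D1:**
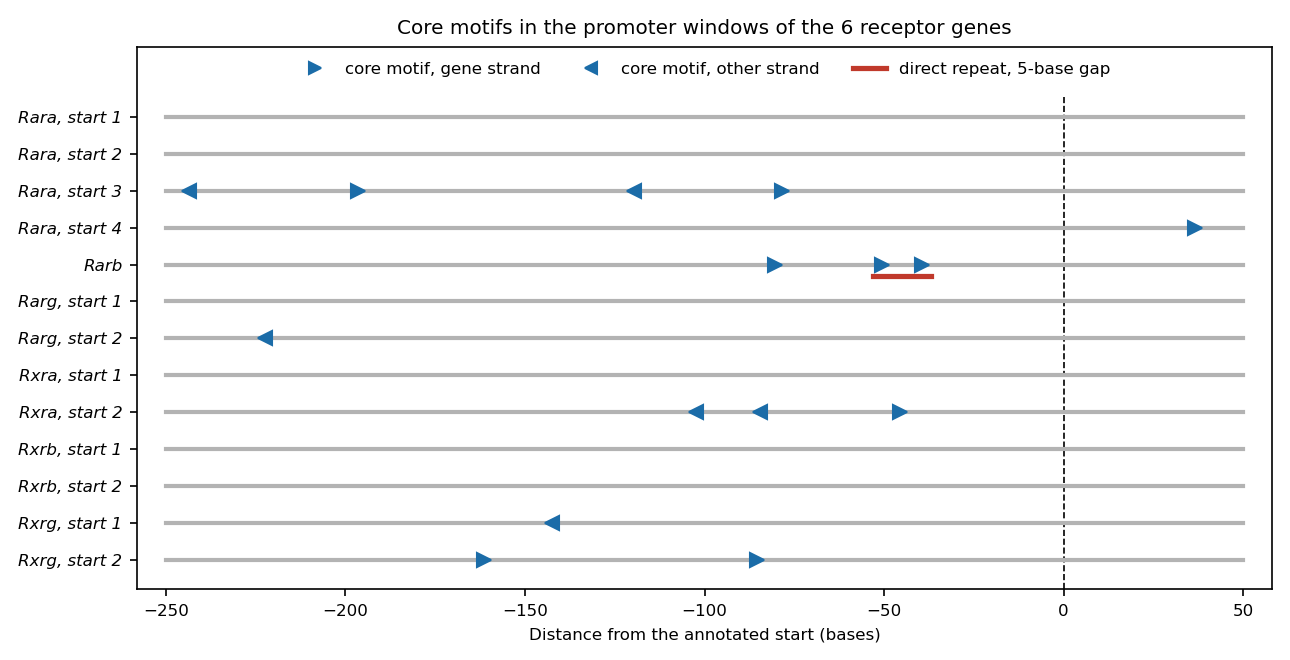
Each grey line is 1 of the 13 promoter windows, and the horizontal axis is the distance from the annotated start in bases (dashed line at the start). Arrowheads mark core motifs by strand and the red bar marks the direct repeat with a 5-base gap, which is seen in the Rarb window alone.

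Rarg, the RAR that made up most of the RAR transcripts in cultured cells here once differentiation had begun, had the largest difference of the 6 on the log2(TPM + 1) scale, and had it with or without RA. It stood at 258, 290 and 260 TPM in no RA 12 h, against 30.4, 27.2 and 28.5 TPM in ESC 0 h. In no RA 24 h it stood at 286, 273 and 268 TPM. Every library taken after the start of differentiation thus lay far above the 3 ESC 0 h libraries, with no overlap. The means were 269 ± 18.1 TPM in no RA 12 h, 276 ± 9.54 TPM in no RA 24 h and 28.7 ± 1.57 TPM in ESC 0 h (SD, n = 3 each), or 9.38-fold and 9.59-fold over ESC 0 h. On the log2(TPM + 1) scale, which understates the change of low genes, the differences were 3.18 ± 0.07 and 3.22 ± 0.07 (SE). Their adjusted p from limma with Benjamini-Hochberg adjustment over all 13940 genes tested was 3.45e-12 at 12 h and 1.59e-12 at 24 h.

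RA added little to that level of Rarg. The libraries stood at 308, 317 and 310 TPM in RA 12 h, against 258, 290 and 260 TPM in no RA 12 h, and did not overlap. The difference of 0.21 (95% interval 0.06 to 0.36) had an adjusted p of 0.0528 and did not pass the threshold of 0.05. It passed without the second no RA 12 h library (adjusted p 0.0218), without the second RA 24 h library (0.0170) or without the third RA 24 h library (0.0463). It also passed by the other measures in the tables, FPKM (0.0461) and coverage (0.0426), and the adjusted p ranged up to 0.173 over 27 alternative settings. At 24 h Rarg stood at 299, 260 and 306 TPM with RA and at 286, 273 and 268 TPM without it. These ranges overlapped, and the difference was 0.06 (95% interval -0.09 to 0.21, adjusted p = 0.507). A correction for GC content and gene length turned that direction, to -0.22 with an adjusted p of 1.90e-04.

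Rarb, by contrast, was close to 0 without RA and rose with RA at both times. It stood at 2.02, 2.20 and 2.25 TPM in RA 12 h, against 0.0615, 0.0499 and 0.0588 TPM in no RA 12 h. At 24 h it stood at 4.94, 6.91 and 3.28 TPM in RA, while the no RA 24 h libraries listed it at 0.0576, 0 and 0 TPM. The ESC 0 h libraries listed it at 0.105, 0 and 0.236 TPM. A value of 0 in tables without counts may be a failed estimate, which was not tested. Hprt, a gene that all cells use, is also listed at 0 in 3 time course libraries. It was low in all the others too, at no more than 1.14 TPM, so its zeros cannot decide this. A gene in use may thus be listed near 0 throughout, and whether this holds for low values of Rarb or Rxrg was not tested. For Rarb, no RA library overlapped a library without RA. The mean in RA 12 h was 38.0 times that in no RA 12 h, a ratio that rests on the very low level without RA, and no ratio is given for 24 h. On the log2(TPM + 1) scale Rarb rose by 1.58 ± 0.17 at 12 h (SE, adjusted p = 2.66e-05) and by 2.52 ± 0.17 at 24 h (adjusted p = 1.53e-07).

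The Rarb level also grew with time in RA. Its mean was 5.04 ± 1.82 TPM in RA 24 h and 2.16 ± 0.123 TPM in RA 12 h (SD, n = 3 each), a ratio of 2.34. All 3 RA 24 h libraries lay above all 3 RA 12 h libraries, and the difference of 0.89 ± 0.17 passed the test (adjusted p = 0.00159), except with a pseudocount of 0.1 in place of 1 (0.0526). The 24 h libraries were spread widely, the highest being the second library. That library was also the highest for Top2b, a DNA topoisomerase gene that overlaps the end of Rarb on the other strand (chr14:16365179-16435462) in the time course tables. Top2b stood at 2.53, 12.7 and 1.89 TPM in RA 24 h and at 4.05, 2.45 and 6.21 TPM in no RA 24 h. The strand of counting is not stated, so reads from the 2 genes cannot be told apart where they overlap. Without that library Rarb was still higher, by 2.31 in RA 24 h over no RA 24 h (adjusted p = 1.30e-07) and by 0.68 over RA 12 h (adjusted p = 0.00429). Top2b itself did not differ between RA 24 h and no RA 24 h at the threshold (0.05 ± 0.57, adjusted p = 0.952).

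Rara, the RAR with the highest TPM in undifferentiated ESCs here, rose with RA at 24 h. It stood at 64.0, 53.7 and 64.8 TPM in RA 24 h, against 37.0, 32.6 and 36.0 TPM in no RA 24 h. All 3 RA libraries lay above all 3 without RA. The means were 60.8 ± 6.18 TPM in RA 24 h and 35.2 ± 2.27 TPM in no RA 24 h (SD, n = 3 each), a ratio of 1.73, and the difference was 0.77 ± 0.10 (SE, adjusted p = 7.28e-05). At 12 h Rara stood at 50.1, 53.9 and 44.9 TPM in RA and at 43.4, 44.0 and 40.8 TPM without it, a difference of 0.21 that did not pass (95% interval -0.01 to 0.43, adjusted p = 0.201).

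Rara was lower in no RA 24 h than in ESC 0 h. The no RA 24 h libraries all lay below the ESC 0 h libraries, which stood at 51.3, 40.4 and 49.9 TPM. The difference of -0.41 ± 0.10 passed the test (adjusted p = 0.00496), but not with the correction for GC content and gene length (0.156). RA 24 h exceeded RA 12 h by 0.29 ± 0.10 (adjusted p = 0.0470), with libraries that overlapped. That call was lost under 19 of 27 alternative settings, among them leaving out any 1 of the no RA libraries, the third ESC 0 h library, or the first or the third library of either RA group (adjusted p 0.0502 to 0.167 over the 19).

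**Figure D2:**
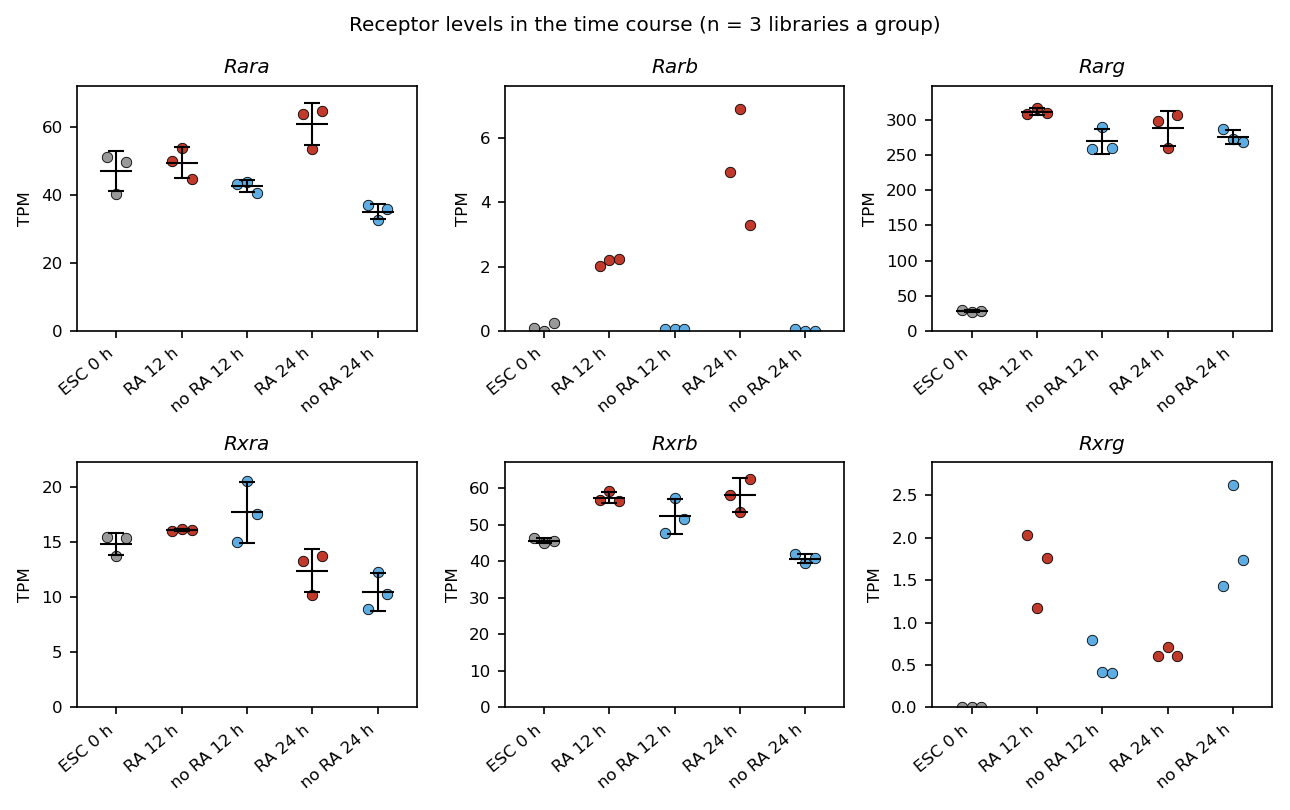
Each point is the TPM of 1 library of the time course, with 3 libraries a group and a panel with its own vertical axis for each receptor. Bars are the mean and SD, left out for Rarb and Rxrg, which are listed at 0 in some libraries. Rarg is high in all 12 libraries after 0 h, Rarb is above 2 TPM in RA alone, and the RA and no RA groups of Rxrg change places between 12 h and 24 h.

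Of the RXRs, Rxrb was the most abundant in all 7 groups and responded to RA at 24 h. It stood at 58.2, 53.4 and 62.6 TPM in RA 24 h, against 42.0, 39.5 and 40.8 TPM in no RA 24 h, with no overlap. The ratio of means was 1.42 and the difference 0.50 ± 0.07 (SE, adjusted p = 1.49e-04). At 12 h the libraries stood at 56.7, 59.1 and 56.6 TPM in RA and at 47.8, 57.4 and 51.7 TPM without it. These overlapped, and the difference of 0.14 (95% interval -0.02 to 0.30) did not pass (adjusted p = 0.232). The ESC 0 h libraries stood at 46.5, 45.0 and 45.5 TPM. Neither no RA group differed from them at the threshold, with differences of 0.19 at 12 h (adjusted p = 0.0542) and -0.16 at 24 h (adjusted p = 0.0826). The first of these passed with the correction for GC content and gene length, where it was 0.22 (adjusted p = 0.00197). It also passed by coverage (0.0301), with a filter of a mean of at least 5 TPM (0.0499), without the first no RA 12 h library (0.0168) or without the second (0.0319) or the third (0.0426) RA 24 h library.

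Rxra stood at 16.0, 16.2 and 16.1 TPM in RA 12 h, against 15.0, 20.6 and 17.5 TPM in no RA 12 h. At 24 h it stood at 13.3, 10.2 and 13.8 TPM with RA and at 8.92, 12.3 and 10.3 TPM without it. The groups overlapped at both times. The RA differences were -0.12 (95% interval -0.42 to 0.18) at 12 h and 0.23 (95% interval -0.07 to 0.52) at 24 h, with adjusted p of 0.599 and 0.219, and the 24 h difference passed only without the second RA 24 h library (0.0436). Against ESC 0 h, at 15.5, 13.7 and 15.4 TPM, Rxra was lower in no RA 24 h by a difference of -0.47 ± 0.14 (adjusted p = 0.0110). That call was lost without the first no RA 24 h library (0.0553), with quantile normalization (0.0551) and with the correction for GC content and gene length (0.164). In no RA 12 h the difference from ESC 0 h was 0.23 (adjusted p = 0.201), and it passed only with that correction (0.0493). Within RA, all 3 RA 24 h libraries of Rxra lay below all 3 RA 12 h libraries, but the difference of -0.36 (95% interval -0.66 to -0.06) did not pass (adjusted p = 0.0593). It passed without the first (0.0429) or the second (0.0440) no RA 12 h library, without the third RA 24 h library (0.0411), by coverage (0.0337) and with the GC and length correction (0.0304).

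Rxrg, the scarcest receptor of the 6 by TPM in 5 of the 7 groups, changed in opposite directions with RA at the 2 times. It stood at 2.03, 1.17 and 1.76 TPM in RA 12 h, against 0.796, 0.415 and 0.404 TPM in no RA 12 h. At 24 h it stood at 0.608, 0.716 and 0.608 TPM in RA, against 1.43, 2.62 and 1.74 TPM in no RA 24 h. The groups did not overlap at either time, with RA above at 12 h and below at 24 h. The ratio of RA to no RA means was 3.08 at 12 h and 0.334 at 24 h. On the log2(TPM + 1) scale the differences were 0.78 ± 0.16 (adjusted p = 0.00429) and -0.81 ± 0.16 (adjusted p = 0.00174). All 3 ESC 0 h libraries listed Rxrg at 0, so no fold is given against them. The test against ESC 0 h passed for no RA 12 h (adjusted p = 0.00840) and no RA 24 h (adjusted p = 4.30e-06). Within RA, Rxrg was lower at 24 h than at 12 h by a difference of -0.68 ± 0.16 (adjusted p = 0.00640).

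Whether the RA effect itself differed between 24 h and 12 h was tested by the interaction term. It was larger at 24 h for Rara, by 0.56 ± 0.15 (adjusted p = 0.0369), and for Rarb, by 0.95 ± 0.25 (adjusted p = 0.0365), and was turned round for Rxrg, by -1.60 ± 0.23 (adjusted p = 9.83e-04). The Rxrg term passed in all 25 alternative settings that could be fitted for it. The Rara term was lost in 16 of 27 settings and the Rarb term in 14 of 26. For Rara these included the omission of any 1 library without RA at 12 h or 24 h, or of the first or the third library of either RA group (adjusted p 0.0549 to 0.0987). For Rarb they included the omission of any 1 library of no RA 12 h, RA 12 h or no RA 24 h, or of the first RA 24 h library (adjusted p 0.0599 to 0.0860). Rxrb fell short (0.36, 95% interval 0.14 to 0.58, adjusted p = 0.0553), but passed without the first no RA 12 h library (0.0254) or the second RA 24 h library (0.0195) and by coverage (0.0466). Rarg and Rxra did not pass (adjusted p = 0.453 and 0.369), though the Rarg term of -0.15 became -0.29 with the GC and length correction (adjusted p = 0.00168).

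Counted together, 2 of the 6 receptors passed the test of RA at 12 h, where 17.4% of all genes tested did, and 4 of 6 passed at 24 h, against 35.3% of all genes. For the change of the RA effect the count was 3 of 6, against 6.85% of all genes. For RA 24 h against RA 12 h it was 3 of 6, against 34.6% of genes. In the absence of RA, 2 of 6 differed from ESC 0 h at 12 h (42.5% of genes) and 4 of 6 at 24 h (52.0% of genes). Rarb and Rxrg reached the filter of 1 TPM in 3 libraries only through groups where they were high, so these counts describe the family and lend it no support. Library ranges were apart for 4 of 6 receptors in the RA comparison at each time, against 36.0% of genes at 12 h and 43.6% at 24 h. They were apart for 4 of 6 between RA 24 h and RA 12 h (50.9% of genes), for 3 of 6 between no RA 12 h and ESC 0 h (49.0%) and for 5 of 6 between no RA 24 h and ESC 0 h (65.3%).

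**Figure D3:**
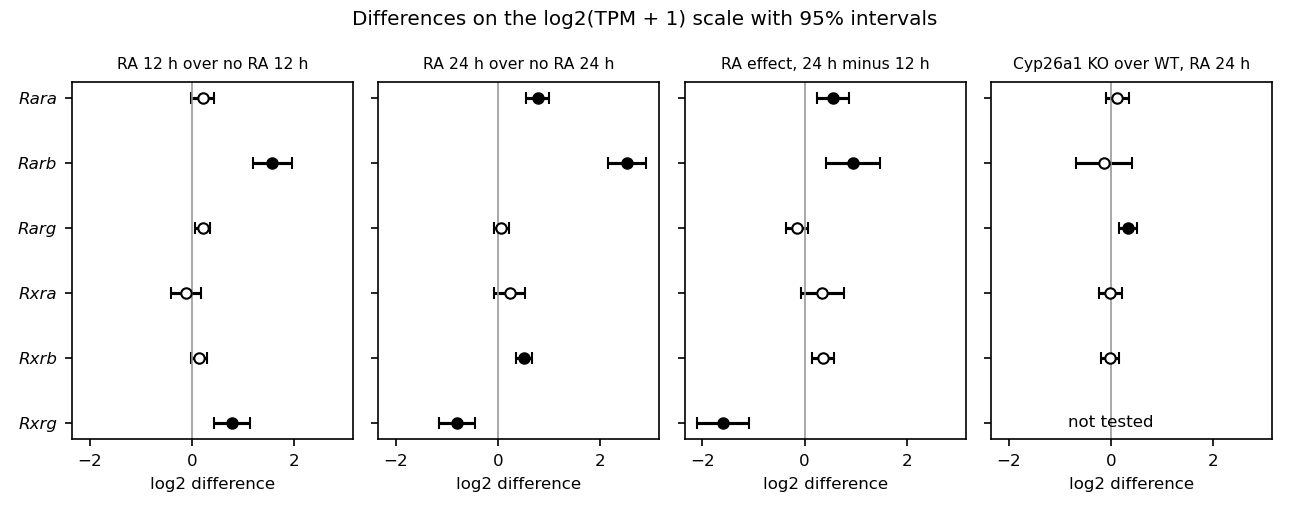
Points are differences on the log2(TPM + 1) scale from limma with 95% intervals, for RA over no RA at 12 h and 24 h, the 24 h minus the 12 h RA effect, and Cyp26a1 knockout over wild type. Filled points passed an adjusted p of 0.05. Rarb lies to the right at both times, Rxrg crosses the zero line between them, and in the knockout comparison only Rarg is filled.

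The receptor with the highest mean TPM was Rara in ESC 0 h and Rarg in every later group. In ESC 0 h Rara (47.2 ± 5.92 TPM) and Rxrb (45.7 ± 0.730 TPM) led with overlapping ranges, followed by Rarg, Rxra and Rarb, with Rxrg listed at 0. In all 4 later groups Rarg led with a wide gap. Rxrb came next and then Rara in RA 12 h, no RA 12 h and no RA 24 h, with ranges apart. In RA 24 h the mean of Rara was above that of Rxrb, with overlapping ranges, and Rxra was always the fourth. In these 4 groups Rarb ranked above Rxrg in RA and below it without RA, though their ranges overlapped in RA 12 h.

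After 0 h, Rarg made up most of the RAR family. It held 85.8% ± 0.937 of the summed RAR TPM in RA 12 h and 86.3% ± 0.625 in no RA 12 h, against 37.9% ± 2.10 in ESC 0 h (SD, n = 3 each). At 24 h its share was 81.4% ± 0.383 in RA and 88.7% ± 0.587 without RA. Rara held 61.9% in ESC 0 h, and 17.2% in RA 24 h against 11.3% in no RA 24 h. Rarb never exceeded 2.16% in a time course library. Within the RXR family, Rxrb held between 74.2% and 81.7% of the summed RXR TPM in the 5 groups.

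The summed RAR level was higher in every later group than in ESC 0 h. Summed RAR TPM was 312 ± 19.2 in no RA 12 h and 311 ± 10.8 in no RA 24 h, against 76.0 ± 7.42 in ESC 0 h. Summed RXR TPM was 70.5 ± 7.48, 53.2 ± 1.11 and 60.5 ± 1.64 in the same groups. The ratio of summed RAR to summed RXR TPM was 4.83 ± 0.0422 in RA 12 h, 4.44 ± 0.266 in no RA 12 h, 4.98 ± 0.117 in RA 24 h and 5.84 ± 0.296 in no RA 24 h, against 1.25 ± 0.0904 in ESC 0 h.

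These shares, orders and family ratios depend on the measure. By coverage, the mean read depth per base that the same tables give, Rarg already held 63.7% of the RAR sum in ESC 0 h and 90.7% to 95.5% in the later groups. By coverage Rara fell below Rarg in ESC 0 h (8.78 against 15.5) and far below Rxrb in RA 24 h (13.8 against 55.1). In ESC 0 h the coverage of Rxrb alone (37.5) was above that of Rarg, Rara and Rarb together. The RXR sum was thus the larger there by coverage, and the RAR sum by TPM. The increase in the Rarg share was seen by both measures. Changes of 1 receptor between groups, as tested above, do not set genes side by side.

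**Figure D4:**
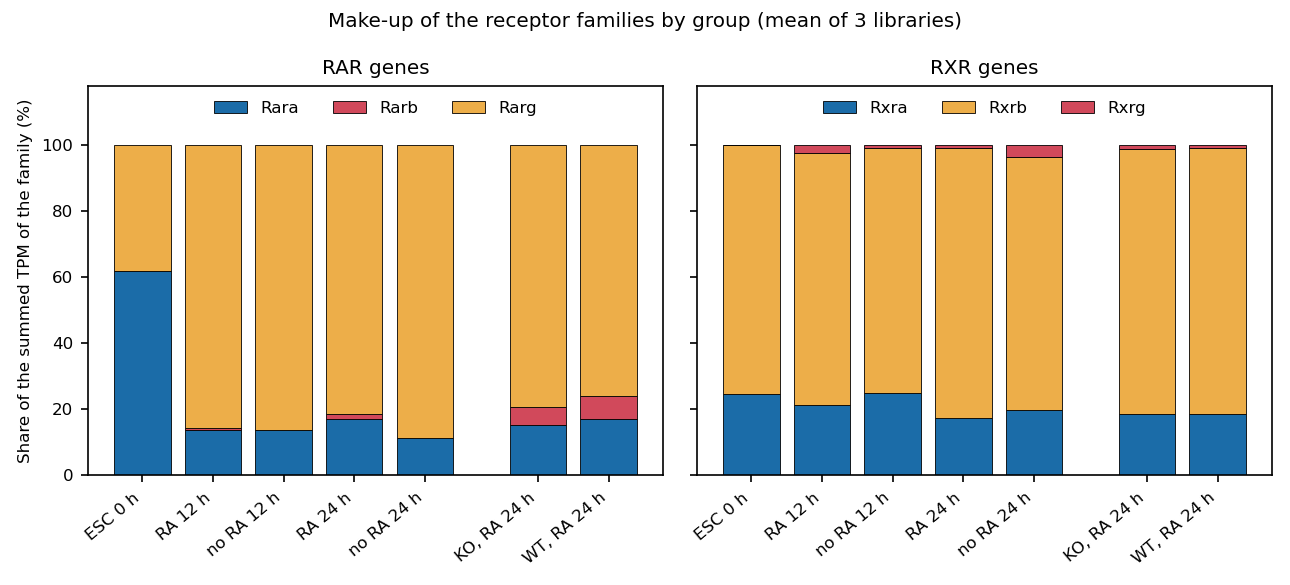
Stacked bars give the mean share of each gene in the summed TPM of its family, in percent, for the 5 time course groups and, set apart, the Cyp26a1 set (3 libraries a group). The Rarg share of the RAR sum is 37.9% in ESC 0 h and at least 81.4% in each later time course group. In the Cyp26a1 set it is 79.2% in the knockout and 75.9% in wild type. Rxrb leads the RXR sum in all 7 groups.

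In the Cyp26a1 set, where both genotypes were in RA for 24 h, Rarg was the receptor that differed. It stood at 195, 195 and 167 TPM in knockout libraries, against 152, 140 and 146 TPM in wild-type libraries, with no overlap. The means were 186 ± 15.9 TPM in the knockout and 146 ± 5.56 TPM in wild type (SD, n = 3 each), a ratio of 1.27. The difference of 0.34 ± 0.07 (SE, 95% interval 0.16 to 0.52) had an adjusted p of 0.0366 over 12848 genes. With 1 receptor of the 5 tested past the threshold, the family stood against 9.99% of all genes, and 1 of 6 had ranges apart, against 32.6% of all genes tested. The call was lost under 9 of 17 alternatives (adjusted p 0.0519 to 0.148), among them leaving out any 1 wild-type library (0.117, 0.148 and 0.136) or the first or second knockout library (0.104 and 0.117). Without the third knockout library, the lowest, the difference was 0.41 (adjusted p = 0.00139).

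Rarb, the receptor gene with the largest RA difference in the time course, did not differ between genotypes at the threshold. It stood at 8.70, 11.7 and 17.1 TPM in knockout libraries and at 11.5, 14.0 and 14.9 TPM in wild-type libraries. The ranges overlapped, and the difference was -0.14 (95% interval -0.69 to 0.41, adjusted p = 0.791), an interval wide enough to hold a sizeable change in either direction. Without the third knockout library, the highest for Rarb and the one that stood farthest apart, the difference was -0.38 (adjusted p = 0.0995). Top2b, its neighbour, was highest in the third library of each genotype, at 11.8, 13.5 and 38.1 TPM in the knockout and 19.2, 19.2 and 31.1 TPM in wild type, as was Rarb, though the tables of this set give them spans that do not overlap. Its part in the spread of Rarb was not tested.

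The other receptors were close between genotypes. Rara stood at 35.6, 39.7 and 32.7 TPM in knockout libraries, against 34.9, 30.6 and 33.2 TPM in wild-type libraries (difference 0.12, 95% interval -0.10 to 0.35, adjusted p = 0.487). Rxra stood at 8.64, 9.63 and 8.75 TPM in knockout libraries, against 9.09, 8.64 and 9.61 TPM in wild-type libraries (difference -0.02, 95% interval -0.24 to 0.21). Rxrb stood at 41.1, 38.8 and 36.5 TPM in knockout libraries, against 40.6, 40.6 and 37.3 TPM in wild-type libraries (difference -0.02, 95% interval -0.20 to 0.15). The interval for Rara reaches the size of the Rarg difference, and those for Rxra and Rxrb stay below it. Rxrg did not reach the filter, at 0.387, 0.369 and 0.636 TPM in the knockout and 0.257, 0.218 and 0.584 TPM in wild type. An exact two-sided permutation test of it, which did not pair libraries by number, gave p = 0.5, where the smallest p that 3 against 3 allows is 0.1. At each replicate number the knockout library was the higher, with a mean difference of 0.11 TPM.

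**Figure D5:**
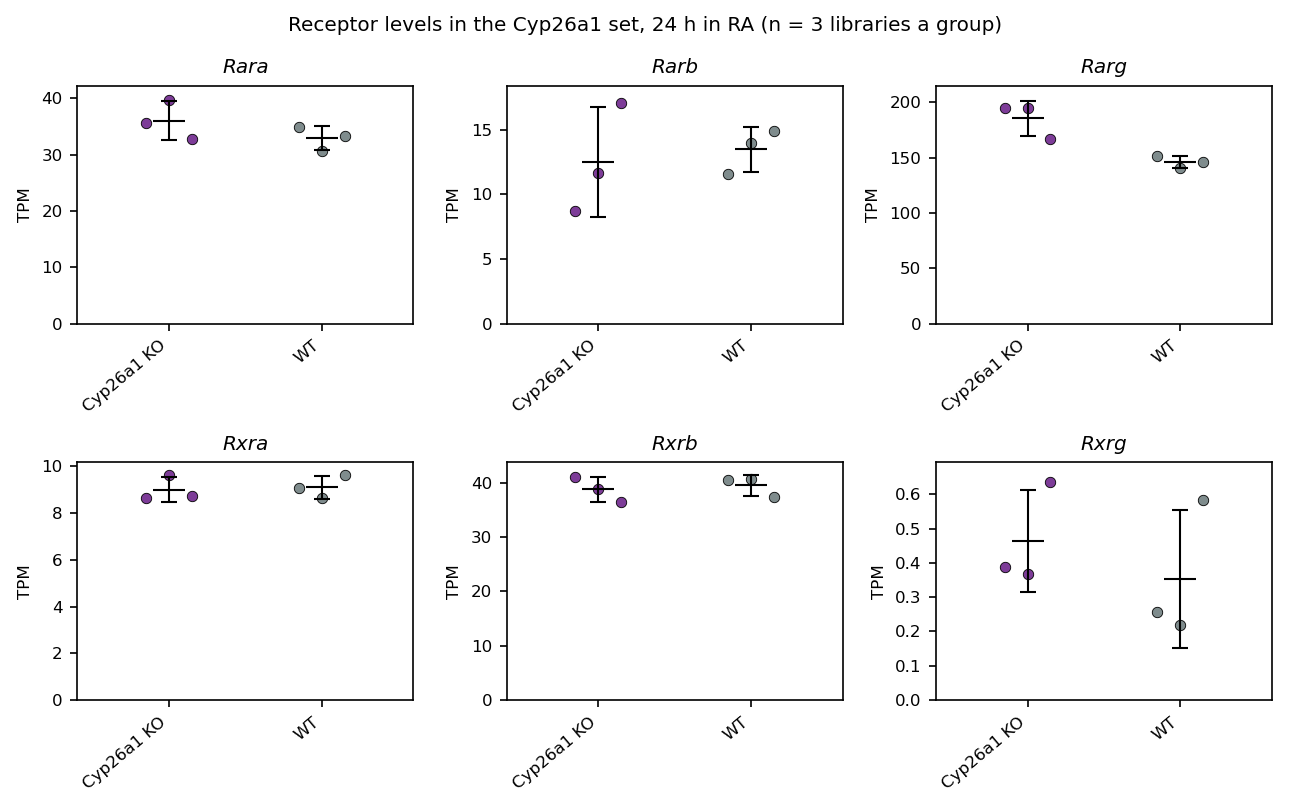
Points are the TPM of each library of the Cyp26a1 set, knockout on the left of each panel and wild type on the right, with the mean and SD (n = 3). The Rarg libraries of the 2 genotypes do not overlap, and those of the other 5 receptors do.

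The proteins that RARs and RXRs work with were listed by role. Of 10 corepressor genes, 3 fell with RA at 12 h and none rose, with a median difference of -0.37 against -0.01 over all genes tested, of which 17.4% passed in either direction. Sin3a, a scaffold of histone deacetylase complexes, averaged 48.5 ± 2.54 TPM in RA 12 h and 80.1 ± 20.2 TPM in no RA 12 h (difference -0.68, adjusted p = 0.0180), where the first no RA library stood highest at 100.1 TPM. That call was lost without the first or the third no RA 12 h library (0.0789 and 0.0575) or without the first or the second RA 12 h library (0.0507 and 0.0678). At 24 h, where 35.3% of all genes passed, 1 rose and 2 fell, among them Gps2, a subunit of corepressor complexes, by 0.60 (adjusted p = 5.30e-04). Of 12 coactivator genes, 3 fell and none rose at 12 h, among them Ep300, a histone acetyltransferase, by 0.74 (adjusted p = 0.0229), a call lost without the first or the third no RA 12 h library or the first or the second RA 12 h library (0.0663 to 0.0971). At 24 h 1 rose and 3 fell, near the share of all genes, among them Med1, the Mediator subunit that contacts nuclear receptors, by 0.43 (adjusted p = 0.00277, and 0.277 with the GC and length correction). In the knockout, where 9.99% of all genes passed, 1 of the 10 corepressor genes rose, Gps2, with a difference of 0.51 (adjusted p = 0.00855; 0.0602 and 0.0567 without the first or the second wild-type library), and none of the 12 coactivator genes passed.

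Some cofactor genes also differed between the no RA cultures and ESC 0 h. Ncoa3, a coactivator of the p160 family, averaged 106 ± 4.88 TPM in no RA 12 h against 53.6 ± 4.25 TPM in ESC 0 h, a difference of 0.97 (adjusted p = 3.46e-07). In all, 0 corepressor genes rose and 2 fell at each time, and 1 coactivator gene rose while 2 fell at 12 h and 3 at 24 h. These counts lie below the share of all genes tested that passed, 42.5% at 12 h and 52.0% at 24 h.

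Of 13 genes tested that supply, bind or break down RA, 6 rose with RA at 12 h, and 11 rose and 1 fell at 24 h. Over all genes 17.4% and 35.3% passed at these times. The RA-degrading enzymes Cyp26a1, Cyp26b1 and Cyp26c1, 3 of the 13, reached the filter of 1 TPM in 3 libraries only through RA libraries, so these counts are a description. Stra6, a retinol transporter, averaged 26.4 ± 0.818 TPM in RA 12 h and 0.859 ± 0.187 TPM in no RA 12 h, and Dhrs3, a retinaldehyde reductase, averaged 37.1 ± 2.26 and 5.38 ± 1.24 TPM in the same 2 groups. Crabp2, which carries RA to the nucleus, changed without RA, at 18.7 ± 0.400 TPM in no RA 24 h against 3.57 ± 0.286 TPM in ESC 0 h (difference 2.11, adjusted p = 3.17e-09). In the knockout 8 of 12 such genes fell and none rose, where 9.99% of all genes passed. Cyp26b1, a related RA-degrading enzyme, fell by 1.08 (adjusted p = 8.86e-04).

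Of 18 known RA target genes tested, 15 rose with RA at 12 h and 18 at 24 h, against 17.4% and 35.3% of all genes that passed in either direction. The list was chosen with earlier results known, and 7 of the 18, Cyp26a1, Gata6, Hoxb1 and 4 other Hox genes, reached the filter only through RA libraries, so the counts are a description and lend no support. In the knockout 12 of 19 fell and 1 rose, where 9.99% of all genes passed, with a median of -0.45 against -0.05 over all genes. Hoxb1, a hindbrain patterning gene with RA response elements, fell by 0.87 (adjusted p = 0.00411), as did Gata6, an endoderm regulator, by 1.09 (adjusted p = 3.60e-04). The endoderm marker sum, which includes Gata6, was 105 to 110 TPM in the knockout against 262 to 280 TPM in wild type, and the ESC marker sum 3039 to 3379 against 2336 to 2360 TPM. Their part in these differences was not tested.

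Other nuclear receptors were listed as partners of RXR or as orphan receptors. Of 13 other receptors that pair with RXR, 6 were tested, and 0 rose and 1 fell at 12 h, where 17.4% of all genes passed, Nr4a1 by 0.39 (adjusted p = 0.0102, and 0.0829 with quantile normalization). At 24 h 1 rose and 2 fell, where 35.3% of all genes passed, with Nr4a1 down by 0.46 (adjusted p = 0.00181). Of 9 orphan nuclear receptors tested, most of which bind related core motifs, 3 rose and 2 fell at 12 h and 2 rose and 2 fell at 24 h. Nr6a1, the germ cell nuclear factor, averaged 63.7 ± 6.11 TPM in RA 24 h and 32.1 ± 3.48 TPM in no RA 24 h (difference 0.97, adjusted p = 1.14e-05). Nr0b1, the pluripotency-associated orphan receptor DAX1, which lacks the usual DNA-binding domain, averaged 58.9 ± 6.59 TPM in RA 24 h and 176 ± 5.13 TPM in no RA 24 h (difference -1.57, adjusted p = 4.65e-08). It was higher in the knockout, at 57.7 ± 6.62 TPM against 22.5 ± 1.38 TPM in wild type (difference 1.31, adjusted p = 0.00140).

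The genes with the most similar profiles differed from receptor to receptor. Likeness was Pearson r of log2(TPM + 1) over the 15 time course libraries, which share groups of 3, so r describes group patterns. The 4728 candidates were genes whose group means spanned at least 1 on that scale, without the receptors and names of the Gm or Rik kind. Rara, Rxra and Rxrb spanned less themselves (0.77, 0.70 and 0.50), so genes with changes as small as theirs were not candidates. For Rarb the nearest were Greb1l (r = 0.983), Hoxa5 (0.980) and Hoxa3 (0.980), the last a pair of anterior Hox genes. For Rarg they were Spry4, an inhibitor of receptor tyrosine kinase signalling (0.996), Coro2b (0.994) and S1pr2, a sphingosine-1-phosphate receptor (0.994). Spry4 averaged 51.2 TPM in RA 12 h, 45.1 TPM in no RA 12 h, 56.2 TPM in RA 24 h and 51.8 TPM in no RA 24 h, against 2.28 TPM in ESC 0 h. Its rise, like that of Rarg, was seen with and without RA, which follows from its choice by likeness to Rarg.

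For Rara the nearest genes were Tbx3os1 (r = 0.939), Sox1, a neural transcription factor (0.930), and Zfp362 (0.922), and for Rxrb the tubulin gene Tubb2a (0.966), the polarity gene Llgl2 (0.951) and Vash1 (0.946). For Rxra they were Nudt22 (0.912), Ccn1 (0.898) and Gprc5a (0.897), and for Rxrg Edn2, an endothelin gene (0.896), Fgr (0.890) and Twf2 (0.890). Edn2, chosen by its likeness to Rxrg in these same libraries, had the same changing order. It averaged 2.96 TPM in RA 12 h and 1.27 TPM in no RA 12 h, but 2.23 TPM in RA 24 h and 4.33 TPM in no RA 24 h. Among the receptors themselves, Rara and Rxrb were the most alike (r = 0.789), followed by Rara and Rarb (0.768) and by Rarg and Rxrg (0.739).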

How the data were processed

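Each library has 1 deposited table of genes with coverage, FPKM and TPM columns. The submitters' processing notes name HISAT2, StringTie and the mm10 build. Their versions and parameters were not given in the sources used here. Coverage, per the file headers a signal column, is the mean read depth per base. FPKM was scaled by the authors for length and library size. TPM was scaled by the authors to the same sum in every library. No counts were given, strand is not stated, and no test of counts was run.

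Rows of 1 gene name were summed per library. In each set, genes reaching 1 TPM in 3 or more libraries were fitted as log2(TPM + 1) by group with limma 3.58.1 in R 4.3.3 (eBayes with trend), with Benjamini-Hochberg adjustment over all genes tested and a threshold of 0.05. The 15 time course libraries shared 1 fit and the 6 libraries of the Cyp26a1 set another. The fit was tested on simulated data with independent noise for each gene and library. In the real data 67.4% (time course) and 70.1% (Cyp26a1 set) of the variance within groups lay on 1 axis. The simulation lacked such an axis, so it does not cover the effect of single libraries. Levels were set side by side as mean ± SD and range, without a test. Other steps used Python 3.11.15 with pandas 2.3.3, scipy 1.17.1 and matplotlib 3.10.9.

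The members and the lists of partners, targets and markers were chosen with earlier results of these data known. Named from each list were at most 3 genes a comparison, past the threshold, with library ranges apart and the largest change; for each receptor, the 3 genes of highest Pearson r were named. Promoter windows were RefSeq's for GRCm38.p6.

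Replicate numbers are shared across groups. Deviations of same-numbered libraries correlated above 0.1 in 7 of 30 time course pairs and in 3 of 3 pairs of the Cyp26a1 set (r 0.189 to 0.536). The numbers were therefore taken as pairing the samples in that set alone, from the data and not from the labels. The main fit and the permutation test of Rxrg did not use this pairing. Alternatives were pseudocount, filter, scaling, measure, trend, a correction for GC content and length, a replicate block, fits of only the groups compared and leaving out each library.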

Additional observations from a re-analysis of the deposited data

Results flagged for a closer look

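For 3 receptors the difference between RA and no RA cultures itself differed between 24 h and 12 h by the interaction test. The RA effect was larger at 24 h for Rara, by 0.56 on the log2(TPM + 1) scale (adjusted p = 0.0369 with limma), and for Rarb, by 0.95 (adjusted p = 0.0365). The Rara call was lost in 16 of 27 alternative settings and the Rarb call in 14 of 26, among them the replicate block (0.0519 and 0.0700) and the omission of most single libraries of the 4 groups compared. The effect was opposite in sign for Rxrg, by -1.60 (adjusted p = 9.83e-04), with all 3 RA libraries above all 3 no RA libraries at 12 h and all 3 below at 24 h. Rxrg is a scarce transcript, at no more than 2.62 TPM in any library.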

How the results depend on the processing

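Of 3683 values recomputed under alternatives, 3455 kept their side of the threshold, or stayed within the replicate spread or within 1.5 times the count. Differences that passed in neither fit were counted among these even where their sign changed. An example is Rxrb in RA 12 h over no RA 12 h, from -0.04 to 0.21. Of the rest, 151 calls were lost, 22 were gained, 1 value turned round with a call, and 54 moved. The cause of these changes was not tested, except where a setting takes receptors out of the test. A filter of a mean of at least 5 TPM does so for Rarb and Rxrg. It leaves 0 of 2 receptor calls for RA at 12 h and 2 of 4 at 24 h. It leaves 1 of 3 for both the change of the RA effect and RA 24 h against RA 12 h. The value that turned round with a call was the Rarg difference between RA 24 h and no RA 24 h, -0.22 with the correction for GC content and length. That correction raised the genes called to 3662 for RA at 12 h (2431 without it) and to 1531 for the change of the RA effect (955 without it). It gave 4 receptor calls for no RA 12 h against ESC 0 h, in place of 2, with Rxra and Rxrb added, and 2 for no RA 24 h, in place of 4. FPKM gave 1 receptor call each for the change of the RA effect, RA 24 h against RA 12 h and no RA 12 h against ESC 0 h. Fitting only the groups compared gave 1 for the last. In these fits the filter took Rxrg out of the test, so its calls were not tested there and did not fail. Rxrg passed 1 FPKM in a single time course library (1.18), and 1 TPM in no library of no RA 12 h or ESC 0 h. The Rara calls for the first 2 comparisons were tested by FPKM and lost (0.0740 and 0.104). Quantile normalization called 599 genes and 1 receptor for the change of the RA effect. The knockout comparison had 0 receptor calls with FPKM, quantile normalization, no filter or no trend in the variance.

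By coverage, an alternative chosen after seeing the data, Rarg held 63.7% of the RAR sum in ESC 0 h, 93.7% in RA 12 h, 94.7% in no RA 12 h, 90.7% in RA 24 h, 95.5% in no RA 24 h, 90.0% in the knockout and 87.7% in wild type. Rxrb held 96.1%, 95.8%, 95.7%, 97.3%, 95.4%, 95.4% and 95.6% of the RXR sum in the same order.

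With a replicate block, the change of the RA effect kept 1 receptor call, Rxrg (Rara 0.0519, Rarb 0.0700), and RA 24 h against RA 12 h kept 2. In the Cyp26a1 set, the numbers were taken as pairing the samples from the data alone. There the block changed no receptor call (Rarg adjusted p = 0.0348) and called 1162 genes where the fit without it called 1284.

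Leaving out 1 library at a time gave 3721 to 7431 genes called for RA at 24 h (7431 without the second RA 24 h library, 4914 with all libraries), 641 to 1544 for the change of the RA effect (1544 without that same library), with 1 to 4 receptor calls, and 293 to 3160 for the knockout (3160 without the third knockout library, 677 and 510 without the first or the second, 293, 325 and 301 without each wild-type library, 1284 with all), with 0 to 1 receptor calls. Receptor calls ranged from 2 to 3 for RA at 12 h, 4 to 5 for RA at 24 h, 2 to 3 for RA 24 h against RA 12 h, 2 to 3 for no RA 12 h and 3 to 4 for no RA 24 h against ESC 0 h. The receptors concerned are named with their results.

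Depth is known only as an estimate of aligned bases, so no counting error can be given for Rarb and Rxrg below 1 TPM.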

Other observations

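The direct repeat with a 5-base gap stood in the windows of 31 gene symbols in all, of which 7 were tested in the time course. With RA, 2 of the 7 rose and 1 fell at 12 h, where 10.2% of all genes tested rose, and 5 rose and none fell at 24 h, where 22.8% of all genes rose. Cyp26a1, Rarb, Ppbp and Hbb-y, 4 of the 7, reached the filter of 1 TPM in 3 libraries only through RA libraries, so these counts are a description and lend no support. The 5 were Cyp26a1 (7.49), Rarb (2.52), the chemokine gene Ppbp (1.81), the embryonic globin gene Hbb-y (1.19) and the biliverdin reductase gene Blvrb (0.34), with log2 differences at 24 h. Cfap45, a cilium gene, fell by 0.75 at 12 h (adjusted p = 0.0227). All 7 were looked at because of the letters in their windows, and binding was not measured.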
